A study of Danio rerio with 12 samples.

Results

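The genes hcn2b, hcn3, hcn4 and hcn4l encode hyperpolarization-activated, cyclic nucleotide-gated (HCN) channels, and they are 4 of the 25099 gene rows counted in zebrafish larvae exposed to bepridil. The members were chosen by name, with the counts of these same libraries at the 4 doses already known, so every level and dose difference of an hcn gene is given here as a description and without a p-value. All 4 names had a row, and all 4 passed the filter on low counts that left 21581 genes for testing. The larvae were of the AB strain and were taken at 120 hours post fertilization (hpf), and the tissue label reads Embryo. They had been kept in 0, 250, 750 or 1295 ng/mL of bepridil, and the 0 ng/mL group was the control. Each dose had 3 libraries, and each library was made from a pool of 15 larvae, with no dissection described. The sources used here do not say when exposure began or whether replicates came from separate clutches, and the p-values of other genes therefore measure the spread between these pools.

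HCN channels open when the membrane becomes more negative and carry an inward current of sodium and potassium ions, called the funny current in the heart. Cyclic AMP binds the part of the channel inside the cell and makes opening easier, which is one route by which adrenaline speeds the heartbeat. In mammals HCN4 is the main form in the sinoatrial node, the natural pacemaker, HCN2 is found in heart and brain, and HCN3 is found in neurons. In zebrafish, a slow heart rate accompanies a reduced current of this kind in the slow mo mutant. Bepridil is an antianginal drug that blocks calcium channels and also sodium and potassium channels.

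The libraries held 15571556 to 18284169 counts, and an hcn gene had between 2 and 213 counts in a library. Levels are given as CPM, counts scaled to the library total with TMM factors, which correct for a few genes taking a large part of a library. On a principal component that held 60.5% of the variance, the 1295 ng/mL libraries lay at -75.05 to -58.42 and the other 9 at -3.05 to 44.28. On the second component, with 10.97% of the variance, 750 ng/mL replicate 3 lay at -36.34, while the other 750 ng/mL libraries lay at -6.64 and -1.43. The TMM factors ran from 0.8308 to 0.9055 for the highest dose and from 1.011 to 1.075 for all other libraries. The fold changes of the hcn genes at 750 ng/mL are therefore also given without replicate 3.

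The hcn4 transcript, which encodes the channel known in mammals as the pacemaker form, was the member that differed most between doses. Its level was 2.171, 1.335 and 2.197 CPM in control replicates 1, 2 and 3, from 38, 22 and 39 counts. At 250 ng/mL it was 2.10, 2.29 and 2.91 CPM. At 750 ng/mL it was 1.79, 2.04 and 0.67 CPM, the last from 11 counts. At 1295 ng/mL the values were 0.495, 0.461 and 0.124 CPM, from 8, 7 and 2 counts. All 3 of these libraries lay below every library of the other doses, and the nearest of those was 750 ng/mL replicate 3. The groups at 0 and 250 ng/mL overlapped.

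As group means, hcn4 stood at 1.90 ± 0.49 CPM (SD, n = 3) without drug, 2.43 ± 0.43 at 250 ng/mL, 1.497 ± 0.727 at 750 ng/mL and 0.360 ± 0.205 at 1295 ng/mL. Pooling the 3 libraries of a dose, 99 counts in controls gave 1.91 CPM (95% exact Poisson interval 1.56 to 2.33), and 17 counts at 1295 ng/mL gave 0.358 CPM (0.208 to 0.573). These intervals cover counting error only, and they do not overlap. In the fit the log2 fold change at 1295 against 0 ng/mL was -2.39 (SE 0.46, 95% interval -3.38 to -1.40), a level 5.24-fold lower. Among the 20299 genes with a mean of at least 1 CPM over the 12 libraries it was the 9th lowest log2 fold change of that comparison. Among all 21581 tested genes it was the 21st lowest. As hcn4 was chosen with these values known, its ranks are a description only. Against 750 ng/mL the log2 fold change was -2.05 (SE 0.48), the 213th lowest of the 20299 genes, and without 750 ng/mL replicate 3 it was -2.343.

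At the lower doses hcn4 did not separate from controls. The log2 fold change was 0.35 (SE 0.34, 95% interval -0.37 to 1.07) at 250 ng/mL and -0.34 (SE 0.36, interval -1.11 to 0.42) at 750 ng/mL. Without 750 ng/mL replicate 3 the latter was -0.04. From the highest level to the lowest, the order was 250, 0, 750 and 1295 ng/mL. Of the neighbours in that order, 250 and 0 ng/mL overlapped and so did 0 and 750 ng/mL, while 750 and 1295 ng/mL did not. The 250 ng/mL libraries all lay above the 750 ng/mL libraries, with 2.095 CPM as their lowest and 2.036 CPM as the highest at 750 ng/mL. Groups of 3 libraries can separate in this way without a difference in level. The share of all genes that did so was not counted for this or any other pair of doses. At 750 against 250 ng/mL the log2 fold change of hcn4 was -0.70 (SE 0.35, 95% interval -1.44 to 0.05), and -0.34 without 750 ng/mL replicate 3.

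**Figure D1:**
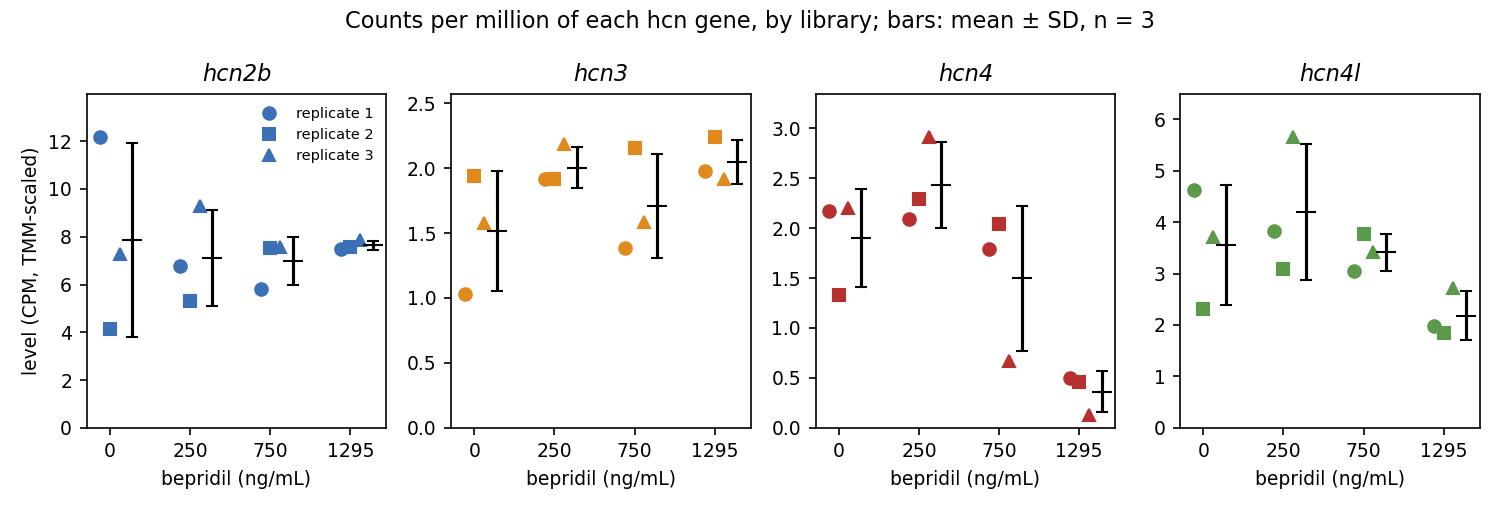
Level of each hcn gene in CPM (vertical axis, a separate scale per gene, each from 0) at each bepridil dose, with 1 marker per library and the mean ± SD of 3 libraries beside it. The hcn4 values at 1295 ng/mL, 0.124 to 0.495 CPM, lie below all others, while hcn2b spreads from 4.13 to 12.2 CPM in controls alone.

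The hcn4l transcript encodes a second hcn4-like channel of the fish. It was at 4.63, 2.31 and 3.72 CPM in control replicates 1, 2 and 3. At 250 ng/mL it was at 3.83, 3.09 and 5.65 CPM, and at 750 ng/mL at 3.05, 3.77 and 3.41 CPM. The 1295 ng/mL libraries read 1.98, 1.84 and 2.72 CPM. The highest of these lay above control replicate 2, so the groups overlapped, whereas every 1295 ng/mL library lay below every 750 ng/mL library. How many of all genes separated in that comparison was not counted, and 28.7% of all tested genes were called lower in it.

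Mean hcn4l levels were 3.55 ± 1.17 CPM (SD, n = 3) in controls, 4.19 ± 1.32 at 250 ng/mL, 3.41 ± 0.36 at 750 ng/mL and 2.18 ± 0.47 at 1295 ng/mL, the same order of doses as for hcn4. The log2 fold change at 1295 against 0 ng/mL was -0.70 (SE 0.28, 95% interval -1.30 to -0.10). Intervals of log2 fold changes are for single genes and are not adjusted over all genes. In the fit of all 12 libraries hcn4l was not called by the test described below. It was called lower in 3 of 12 fits with a library left out and in 2 of 10 other settings. With all 12 libraries 22.2% of all tested genes were called lower in this comparison. As hcn4l was chosen with these values known, nothing is read from these calls. The log2 fold change of hcn4l ran from -0.93 without control replicate 2 to -0.47 without control replicate 1. At 1295 against 750 ng/mL it was -0.64 (SE 0.28), at 250 against 0 ng/mL 0.24 (SE 0.26, interval -0.31 to 0.79) and at 750 against 0 ng/mL -0.06 (SE 0.27, interval -0.63 to 0.50). Without 750 ng/mL replicate 3 the hcn4l values were -0.59 at 1295 against 750 ng/mL and -0.11 at 750 against 0 ng/mL. Both hcn4 and hcn4l are close relatives, so reads could have been shared or split between them in counting. The ratio of hcn4 to hcn4l counts was 0.47 to 0.74 in the 8 libraries up to 750 ng/mL other than 750 ng/mL replicate 3, where it was 0.20. At 1295 ng/mL it was 0.25, 0.25 and 0.045. These ratios come from counts within 1 library, so no scaling between libraries enters them.

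The hcn2b transcript, one of the fish genes named for HCN2, had the widest spread of the members among untreated larvae. Control replicates 1, 2 and 3 gave 12.2, 4.13 and 7.27 CPM, from 213, 68 and 129 counts. The coefficient of variation was 51.6%, against 8.55% from counting error alone. It was 6.76, 5.32 and 9.29 CPM at 250 ng/mL and 5.82, 7.55 and 7.55 CPM at 750 ng/mL. At 1295 ng/mL it was 7.49, 7.57 and 7.85 CPM, a coefficient of variation of 2.45%. All treated values lay inside the control range.

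Mean hcn2b levels lay between 6.97 ± 0.998 CPM (SD, n = 3) at 750 ng/mL and 7.86 ± 4.05 CPM in controls. The log2 fold change was -0.14 (SE 0.29) at 250 ng/mL, -0.18 (SE 0.29) at 750 ng/mL and -0.04 (SE 0.29, 95% interval -0.66 to 0.57) at 1295 ng/mL. The last was 0.42 without control replicate 1 and -0.35 without control replicate 2, and without control replicate 1 the values at 250 and 750 ng/mL were 0.32 and 0.28. The sign thus turned with 1 library, and the interval leaves room for differences of either direction. Without 750 ng/mL replicate 3 the hcn2b value at 750 ng/mL was -0.29. No order of doses stood out beyond the spread.

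The hcn3 transcript was read at 1.03, 1.94 and 1.58 CPM in controls and at 1.92, 1.92 and 2.18 CPM at 250 ng/mL. It was at 1.38, 2.16 and 1.58 CPM at 750 ng/mL and at 1.98, 2.24 and 1.92 CPM at 1295 ng/mL. Control replicate 2 lay among the treated values, so every group overlapped the controls. Mean levels ran from 1.52 ± 0.46 CPM (SD, n = 3) in controls to 2.05 ± 0.17 at 1295 ng/mL. The log2 fold changes were 0.41 (SE 0.25, 95% interval -0.13 to 0.94), 0.17 (SE 0.26, interval -0.38 to 0.72) and 0.43 (SE 0.25, interval -0.11 to 0.97) at the 3 rising doses. Without 750 ng/mL replicate 3 the hcn3 value at 750 ng/mL was 0.18. With only 18 to 39 counts in a library, counting error alone gave a coefficient of variation of 17.2% to 19.6%.

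**Figure D2:**
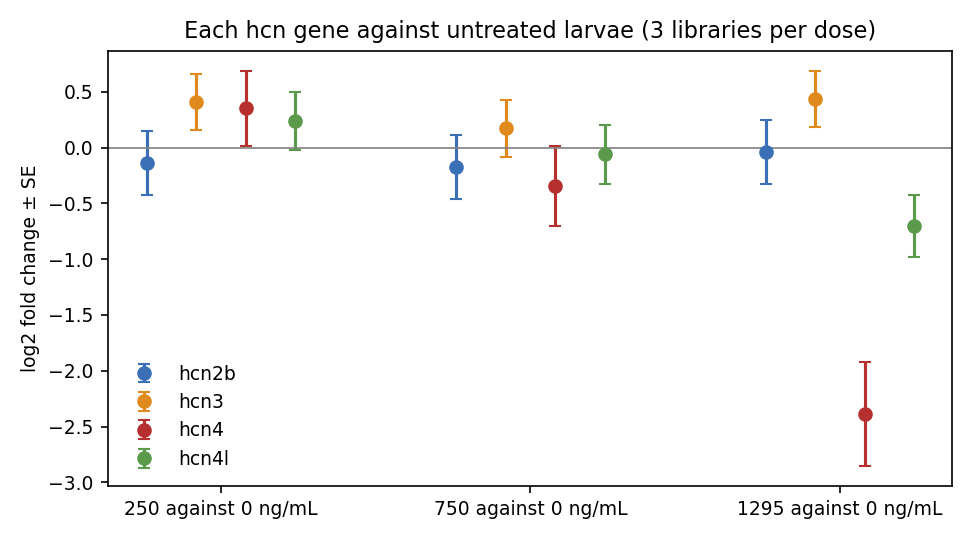
Log2 fold change of each hcn gene at 250, 750 and 1295 ng/mL against 0 ng/mL, with bars of 1 standard error from the fit over all genes. At 1295 ng/mL hcn4 is at -2.39 and hcn4l at -0.70, while hcn2b is at -0.04 and hcn3 at 0.43.

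A call in the fit over all genes meant an adjusted p under 0.05 from the quasi-likelihood test of edgeR, adjusted over all genes after Benjamini and Hochberg. At 250 against 0 ng/mL it held for 0 of the 4 members, beside 10.5% of all tested genes, and at 750 against 0 ng/mL again for 0, beside 6.33%. At 1295 against 0 ng/mL 1 member, hcn4, was called lower, beside 22.2% of all tested genes called lower. At 1295 against 750 ng/mL hcn4 alone was called lower, beside 28.7%. In that comparison hcn4l was called lower in 2 of 12 fits with a library left out and in 3 of 10 other settings. Between 750 and 250 ng/mL 0 members and 0% of all genes were called by this test, with 1681 genes at an unadjusted p under 0.05, 5 genes called by DESeq2 and 0 by limma-voom. Since the members were chosen with these comparisons known, nothing is read from their counts. The 3 comparisons with untreated larvae share the same control libraries.

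The summed level of the 4 genes differed less between doses than that of hcn4. It was 14.8 ± 5.15 CPM (SD, n = 3) in controls, 15.8 ± 3.85 at 250 ng/mL, 13.6 ± 1.77 at 750 ng/mL and 12.2 ± 0.34 at 1295 ng/mL, and the control range of 9.71 to 20.0 CPM covered all 1295 ng/mL libraries. The make-up of these counts differed. The mean share of hcn4 was 13.2% ± 2.08 (SD, n = 3) of the summed counts in controls, 15.7% ± 2.14 at 250 ng/mL, 11.01% ± 5.215 at 750 ng/mL and 2.98% ± 1.74 at 1295 ng/mL. In 750 ng/mL replicate 3 the hcn4 share was 5.07% (95% exact binomial interval 2.56 to 8.89, from 11 of 217 counts). In 1295 ng/mL replicate 3 it was 0.980% (0.119 to 3.50, from 2 of 204 counts).

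The hcn4l share stayed within 23.1% to 28.2% in the 9 libraries up to 750 ng/mL and was 16.6%, 15.2% and 21.6% at 1295 ng/mL. The hcn2b share was 42.2% to 60.9% in the 9 libraries and 62.7%, 62.5% and 62.3% at 1295 ng/mL. Shares in a library make up a whole, so this is not a difference apart from the lower hcn4 and hcn4l shares. The mean level of hcn2b was 7.86 CPM in controls and 7.64 CPM at 1295 ng/mL. For hcn3 the mean share was 11.9% ± 7.51 (SD, n = 3) in controls and 16.8% ± 1.65 at 1295 ng/mL, and these groups overlapped. Shares of counts also depend on transcript length, which was not used here, so they compare libraries and not the levels of different genes.

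**Figure D3:**
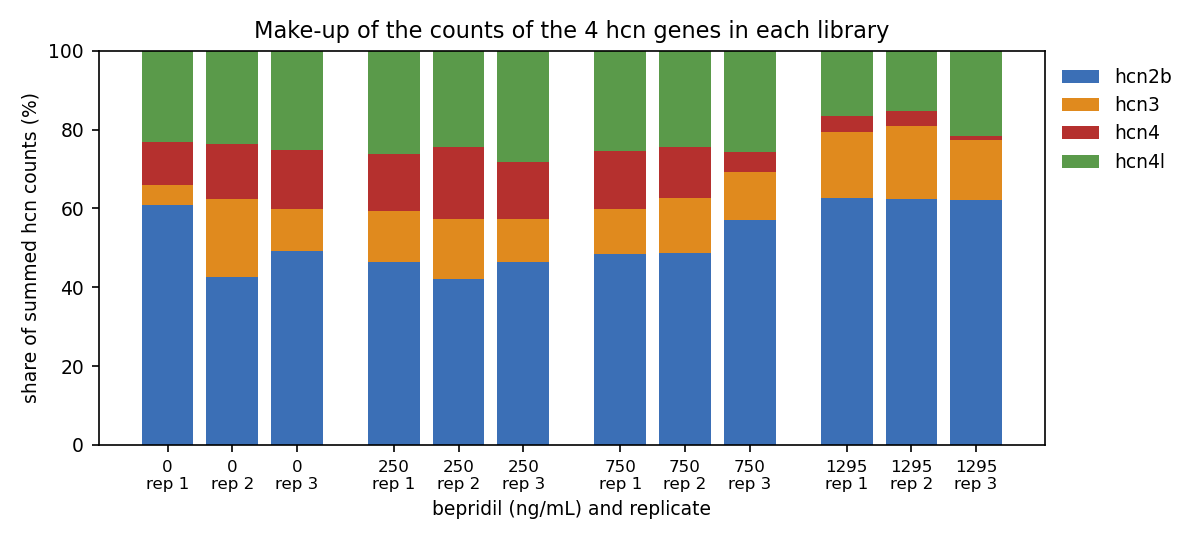
Share of each gene in the summed counts of hcn2b, hcn3, hcn4 and hcn4l (vertical axis, percent), 1 bar per library. The hcn4 band is 10.9% to 18.1% in controls, at 250 ng/mL and in 750 ng/mL replicates 1 and 2, 5.07% in 750 ng/mL replicate 3 and 0.980% to 4.15% at 1295 ng/mL.

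The levels of hcn2b and hcn4l varied together among libraries of the same dose. In controls both were highest in replicate 1 and lowest in replicate 2, and at 250 ng/mL both were highest in replicate 3 and lowest in replicate 2. The ratio of hcn2b to hcn4l counts was 1.64 to 2.63 in the 9 libraries up to 750 ng/mL, a narrower range than that of either gene. At 1295 ng/mL it was 3.78, 4.11 and 2.89, above all 9. How often the count ratios of gene pairs outside the family separate in this way was not counted. By contrast hcn3 was lowest in control replicate 1, where hcn2b was highest. The summed level of the neuron markers described below was also highest in control replicate 1 and lowest in control replicate 2, at 4592 and 3547 CPM. At 250 ng/mL this sum was nearly equal in replicates 1, 2 and 3, at 3742, 3769 and 3704 CPM. Its part in the spread of hcn2b and hcn4l was not tested.

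**Figure D4:**
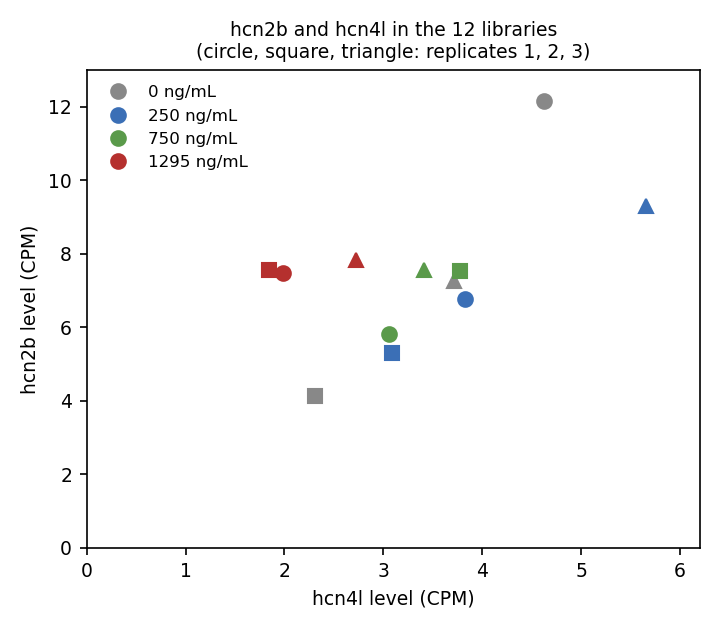
Level of hcn2b against that of hcn4l in CPM, 1 marker per library, coloured by dose. The 9 libraries up to 750 ng/mL lie along a band with count ratios of 1.64 to 2.63, and the 1295 ng/mL libraries lie to its left, with ratios of 2.89 to 4.11.

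RefSeq names placed another pair of count rows in the family. The row si:rp71-68n21.12, which RefSeq names hcn5, read 2.63, 4.43 and 3.16 CPM in controls and 5.20, 4.02 and 4.39 CPM at 1295 ng/mL, and these groups overlapped. Its log2 fold changes of 0.27, 0.38 and 0.42 (SE 0.21 each) at the 3 rising doses were all positive. The row LOC100329795, which RefSeq names hcnl1, had 0 to 9 counts per library and did not pass the filter. Both rows were added after their values had been seen.

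In RefSeq's assembly GRCz12tu, among protein-coding genes with a row here, hcn4 lies next to pkma and hcn4l lies between pkmb and nptna, so both hcn4-type genes sit beside a pyruvate kinase gene. At 1295 against 0 ng/mL pkma stood at -0.04 on the log2 scale (SE 0.11, edgeR adjusted p = 0.792). For pkmb it was 0.46 (SE 0.09, adjusted p = 0.00116), and nptna, which encodes a neuroplastin cell adhesion protein, fell by 0.55 (SE 0.08, adjusted p = 0.000165).

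By Pearson correlation of log2 CPM over the 12 libraries, the genes most like hcn4 among 20298 were LOC100334012 (r = 0.97), dab1b (0.97) and clstn2 (0.97), and over the 9 libraries up to 750 ng/mL the same genes had r = 0.95, 0.98 and 0.89. For hcn4l they were nhsl1a (0.96), brwd3 (0.96) and mast2 (0.95). For hcn2b they were cnksr2b (0.94), phc2b (0.93) and si:ch211-244c8.4 (0.92), and for hcn3 stx17 (0.91), mpdu1a (0.89) and si:dkey-46i9.6 (0.87). No gene stood among the nearest 3 of more than 1 member. These values are a description of the highest of many correlations, and the points share library depth and, for 3 libraries, the highest dose.

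The closest relatives of HCN channels are the cyclic nucleotide-gated channels, some of which carry the light-sensitive current of photoreceptors. Over all tested genes at 1295 against 0 ng/mL 18.8% were called higher and 22.2% lower, which is the background for each list. Of 11 listed relatives 4 had a row and were tested. Of these 4 tested genes 3 fell in that comparison, with a median log2 fold change of -1.54 beside -0.02 over all tested genes. The cone subunit gene cngb3.1 went from 3.94 ± 1.37 to 0.965 ± 0.240 CPM (-2.02 on the log2 scale with SE 0.27, edgeR adjusted p = 6.48e-05). The rod subunit gene cngb1a fell by 1.57 (SE 0.23, adjusted p = 0.000148) and the cone gene cnga3a by 1.52 (SE 0.30, adjusted p = 0.00114). The remaining gene, cnga4, stood at -0.03 (edgeR adjusted p = 0.947), so the median reflects the photoreceptor subunits. At 250 and 750 ng/mL 0 of the 4 were called by edgeR, beside 10.5% and 6.33% of all tested genes. Without control replicate 3 edgeR called 2 higher at 250 ng/mL and 1 at 750 ng/mL.

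Among 14 tested partners of HCN channels 3 rose and 3 fell at 1295 ng/mL, with a median of -0.11. These shares, 21.4% each, lie near those over all genes, 18.8% higher and 22.2% lower. The gene lrmp, whose mammalian product binds HCN4 and reduces its response to cyclic AMP, fell from 12.9 ± 3.61 to 5.12 ± 0.717 CPM (-1.34 on the log2 scale with SE 0.18, edgeR adjusted p = 7.23e-05). The gene kctd3, whose mammalian product binds HCN3, fell by 0.66 (SE 0.17, adjusted p = 0.00702). The caveolin gene cav3, a membrane scaffold of muscle, rose by 0.47 (SE 0.10, adjusted p = 0.00215). When libraries were scaled by total counts alone, 0 rose and 7 fell, and without control replicate 3 or 1295 ng/mL replicate 2 only 1 rose. Without 250 ng/mL replicate 3, or with the compared groups alone, 5 rose.

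Transcription factors and signals of the pacemaker region had a median of 0.10 at 1295 ng/mL, with 2 of 17 higher and 3 lower. Their shares of 11.8% and 17.6% lie below the 18.8% and 22.2% over all genes. The repressor gene tbx3a, which keeps pacemaker cells from becoming working heart muscle in mammals, rose from 28 ± 4.109 to 39.98 ± 2.775 CPM (0.51 on the log2 scale with SE 0.12, edgeR adjusted p = 0.00416), and bmp4 rose by 0.38 (SE 0.11, adjusted p = 0.0111). The channel regulator gene fgf13a fell by 0.54 (SE 0.10, adjusted p = 0.000913). Also called lower was shox2, at -0.45 on the log2 scale (edgeR adjusted p = 0.0172), so tbx3a and shox2 moved in opposite directions. So was fgf13b, at -0.52 (edgeR adjusted p = 0.00699). With total counts alone as the scale, 0 rose and 4 fell. At 250 and 750 ng/mL 0 of these genes were called by edgeR, beside 10.5% and 6.33% of all tested genes. There was 1 higher at 250 ng/mL when only the 250 and 0 ng/mL groups were fitted or without 750 ng/mL replicate 3.

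Other ion transport genes of pacemaking were mostly lower at 1295 ng/mL, 13 of 24 with 2 higher, and their median was -0.82. The L-type calcium channel gene cacna1c, whose protein is the main known target of bepridil's class, went from 73.0 ± 4.65 to 27.4 ± 7.97 CPM (-1.41 on the log2 scale with SE 0.16, edgeR adjusted p = 2.24e-05). The T-type calcium channel gene cacna1ha fell by 1.32 (SE 0.17, adjusted p = 5.05e-05). The listed sodium channel gene scn4ab, which encodes the skeletal muscle form, fell by 0.86 (SE 0.12, adjusted p = 0.000127). Its fall is therefore not read as one of pacemaking. All of these genes were read in whole larvae, so their levels are not those of the heart alone. With total counts alone the list had 0 higher and 15 lower, and the higher count was 1 under several other settings. At 250 ng/mL 2 of the 24 were higher and 2 lower, 8.33% each, beside 6.03% higher and 4.48% lower over all genes. At 750 ng/mL 0 were higher and 1 lower (4.17%), beside 4.2% and 2.14% over all genes. Without replicate 3 of that dose the counts at 750 ng/mL were 0 and 0.

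Genes of cyclic AMP and autonomic signalling, which set how readily HCN channels open, were lower in 19 of 41 cases and higher in 3 at 1295 ng/mL, with a median of -0.44. The phosphodiesterase gene pde4a, whose enzyme breaks down cyclic AMP, fell by 1.35 (SE 0.14, adjusted p = 1.29e-05), and pde4bb fell by 1.39 (SE 0.21, adjusted p = 0.000202). The tested genes of adenylyl cyclases, the enzymes that make cyclic AMP, were also called lower, except adcy6b and adcy9. The lowest value of the list was that of adcy1b, at -1.95 on the log2 scale (edgeR adjusted p = 0.000221). The gene prkacba, for a catalytic subunit of protein kinase A, rose from 8.15 ± 0.38 to 16.9 ± 2.03 CPM (1.05 on the log2 scale with SE 0.14, edgeR adjusted p = 6.26e-05). With total counts alone 1 rose and 31 fell. At 250 ng/mL 3 were higher (7.32%) and 1 lower (2.44%), beside 6.03% and 4.48% over all genes. At 750 ng/mL 0 were higher and 1 lower (2.44%), beside 4.2% and 2.14% over all genes. Without replicate 3 of that dose 1 was higher at 750 ng/mL.

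Because whole pools of larvae were measured, fewer cells of a type and less RNA per cell cannot be told apart, and the markers of tissues that may hold HCN channels moved at 1295 ng/mL as well. All 8 defining markers were counted in all 12 libraries. Of 44 neuron markers 40 fell and 0 rose, with a median of -0.82, and their summed level was 3547 to 4592 CPM in controls and 2144 to 2554 CPM at 1295 ng/mL. The neuronal genes elavl3 and snap25a fell by 0.85 (SE 0.14, adjusted p = 0.000343) and 0.88 (SE 0.12, adjusted p = 7.38e-05). Of 39 photoreceptor markers 31 fell and 0 rose (1 rose without control replicate 1), with a median of -0.99 and a summed level of 4067 to 7067 CPM in controls against 2021 to 3289 CPM. The photoreceptor transducin genes gnat1 and gnat2 fell by 1.301 (SE 0.16, adjusted p = 3.41e-05) and 1.08 (SE 0.22, adjusted p = 0.00118). In 23 markers of other retinal cells 7 fell and 0 rose, with a median of -0.30 and sums of 713.7 to 951.2 CPM against 724.3 to 784.0 CPM. The count of 7 was 3 and 13 without control replicates 3 and 2, 4 without 1295 ng/mL replicate 1 or 2, and 15 with total counts alone.

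Of 21 tested genes listed as heart muscle markers, 8 rose and 3 fell at 1295 ng/mL, with a median of 0.29. Whole larvae were read, so these counts and this median are not those of the heart alone. The myosin light chain gene myl7 rose by 0.44 (SE 0.14, adjusted p = 0.0217), the natriuretic peptide gene nppa rose by 1.33 (SE 0.16, adjusted p = 3.12e-05) and tnnt2a stood at 0.36 on the log2 scale (SE 0.18, edgeR adjusted p = 0.116). The giant sarcomere gene ttn.2 fell by 1.37 (SE 0.13, adjusted p = 8.16e-06). The ventricular myosin gene vmhc was also called lower, at -0.31 on the log2 scale (edgeR adjusted p = 0.0227). So was vmhcl, at -0.57 (edgeR adjusted p = 0.0196). The level of ttn.2 was 1948 ± 175 CPM in controls and 754 ± 136 CPM at 1295 ng/mL. In controls the listed actin gene actc1a was at 540.7 CPM and myl7 at 23.54 CPM. The part of the ttn.2 and actc1a levels that came from the heart was not tested, so the fall of ttn.2 is not read as one of the heart. The summed level of the list was 2396 to 2423 CPM against 3146 to 3392 CPM in controls. Most of the control sum was ttn.2, whose mean fell by more CPM than the sum did. The sum therefore does not describe the other genes of the list. With total counts alone 4 rose and 5 fell. The higher count was 5 without control replicate 1 or 1295 ng/mL replicate 2, and the lower count was 1 without 1295 ng/mL replicate 1 or 3.

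Skeletal muscle markers rose in 17 of 30 cases and fell in 7, with a median of 0.34 and sums of 76060 to 88460 CPM in controls against 101800 to 118900 CPM, and with total counts alone 12 rose and 9 fell. The lower count was 4 without control replicate 2 or 1295 ng/mL replicate 3. The part of any of these shifts in the hcn4 and hcn4l values was not tested.

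In 750 ng/mL replicate 3, the library with 0.67 CPM of hcn4, the heart muscle sum was the lowest of its group at 3165 CPM, against 3546 and 3469 CPM. Most of the heart muscle sum at 750 ng/mL was ttn.2, with a mean of 2121 ± 226 CPM (SD). The sum therefore says little of the other genes of that list and is not a level of the heart alone. The photoreceptor sum was the highest at 9138 CPM, against 7730 and 7065 CPM, and so was the neuron sum at 4330 CPM, against 3904 and 4100 CPM. The other members were not low in this library, with hcn4l at 3.41 CPM and hcn2b at 7.55 CPM.

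**Figure D5:**
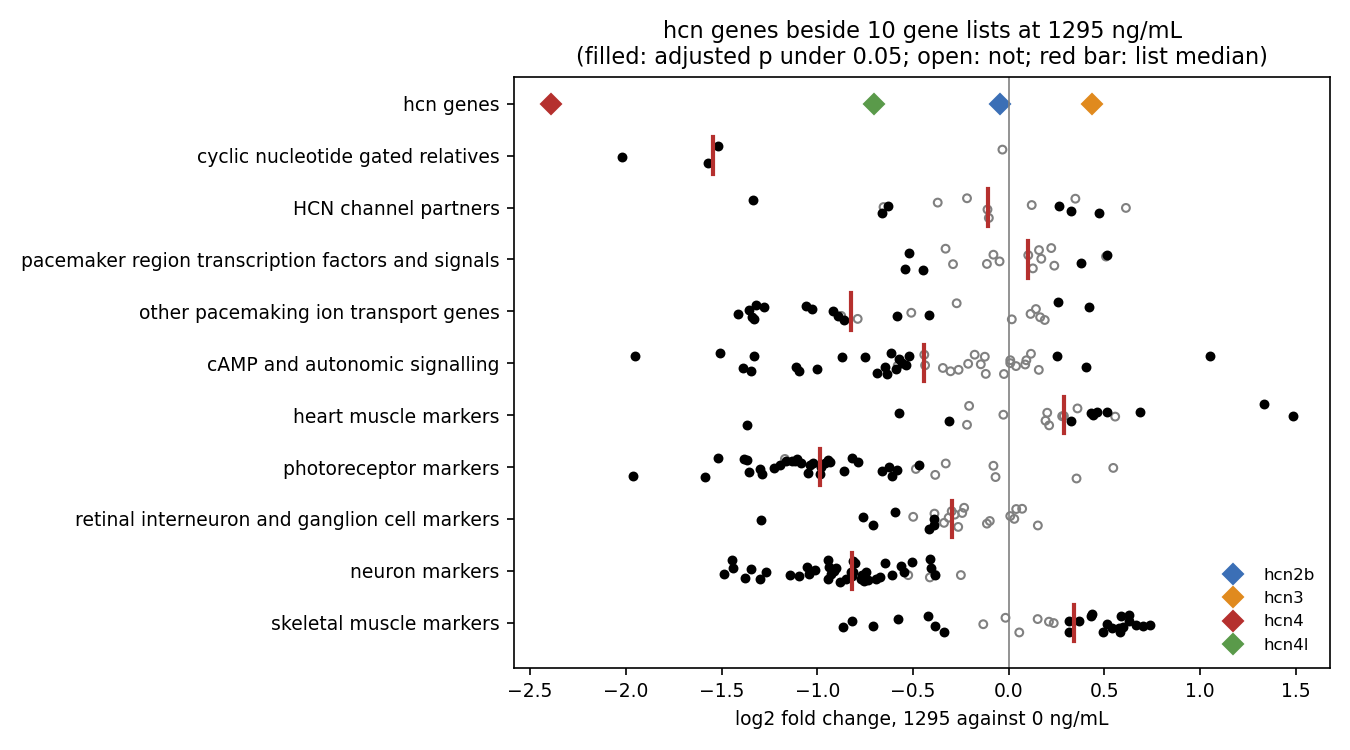
Log2 fold change at 1295 against 0 ng/mL of the 4 hcn genes (diamonds, top row) and of every tested gene of 10 gene lists (points, filled where the adjusted p was under 0.05, red bar at the list median). The hcn genes lie at -2.39 (hcn4), -0.70 (hcn4l), -0.04 (hcn2b) and 0.43 (hcn3), and the list medians run from -1.54 in the cyclic nucleotide-gated relatives to 0.34 in skeletal muscle.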

How the data were processed

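Per the labels' protocols, RNA of pooled larvae was extracted with RNAiso Plus and sequenced from stranded mRNA libraries. The submitters' processing notes name Trimmomatic, HISAT2, HTSeq and build GRCz11. Not given in the sources used here are tool versions, the annotation and the strand setting. The authors deposited raw read counts per gene, whole numbers that were not normalized as far as their values show. The labels gave the dose and replicate number of each library.

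Tests used R 4.3.3 and edgeR 4.0.16: filterByExpr left 21581 genes, scaled by TMM. All 12 libraries entered 1 quasi-likelihood fit with dose group as factor and 8 residual degrees of freedom. Benjamini-Hochberg adjustment ran over all tested genes. The prior count was 0.125. Standard errors came from the size of each log2 fold change over the root of its F statistic. The fit was tested on simulated data with the same spread beyond counting error for all genes. That does not cover genes as variable as hcn2b. Correlations used log2(CPM + 0.5).

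The members and the 10 gene lists, written from textbook knowledge, were chosen with earlier results of these data known. Genes named from a list were the 3 with the smallest p over all doses, plus 8 defining tissue markers. A few other listed genes were named to show values that these left out. Alternatives were other scalings, filters, DESeq2 1.42.0, limma-voom (limma 3.58.1), compared groups only, a replicate block, a prior count of 2 and each library left out. The prior count of 2 changes log2 fold changes only, so calls under it were those of the main fit. Levels per transcript length, planned as an alternative, were not computed. RefSeq's gene order gave neighbours, and no coordinates or sequences are printed.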

Additional observations from a re-analysis of the deposited data

How the results depend on the processing

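As a description, the log2 fold change of hcn4 at 1295 against 0 ng/mL was -2.65 to -2.09 under 9 other settings and -2.70 to -1.98 with each library left out. Against 750 ng/mL it was -2.28 to -1.76 and -2.35 to -1.63. It has no value where at least 10 counts were required in every library. The hcn4l difference at 1295 against 0 ng/mL was -0.96 to -0.66 under 10 other settings, with -0.96 for total counts alone and -0.70 for the replicate block, and -0.93 to -0.47 with each library left out.

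Total counts alone moved the median of all genes by -0.26 at 1295 against 0 ng/mL and took the share of higher calls from 45.9% to 14.5%. There hcn3 was at 0.18 and hcn2b at -0.30, and against 750 ng/mL that share went from 45.0% to 21.6%. Differences that were not called also turned sign with 1 library left out, namely those of hcn2b, of hcn3 at 750 ng/mL (-0.04) and of hcn4l at 250 (-0.04) and 750 ng/mL (0.17). At 250 ng/mL the share of 57.4% was 45.8% with DESeq2.

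With each library left out, calls over all genes ran from 1069 to 3051 at 250 ng/mL (2269 with all, 1105 without control replicate 1, 1069 without 250 ng/mL replicate 3). At 750 ng/mL they ran from 631 to 1568 (1367 with all, 631 without control replicate 1, 885 and 837 without 750 ng/mL replicates 1 and 3), and at 1295 ng/mL from 6519 to 9607 (8848 with all). For 750 against 250 ng/mL they were 0 to 1, and DESeq2 called 5. Fitting only the compared groups called 813 genes at 750 ng/mL. Deviations of same-numbered libraries from their group means had r from -0.30 to 0.17. The sources used here do not say whether same-numbered libraries shared a clutch. With 3 libraries per dose these correlations cannot settle it. With the replicate block 1940, 1275 and 8374 genes were called at the 3 rising doses. Of 2100 list counts under alternatives, 187 moved by over 1.5 times.

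Depth limits hcn4 most. At 1295 ng/mL its 3 libraries held 17 counts together. Levels per transcript length were planned and not run, because no lengths were used here.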
